A study of Bombyx mori with 12 samples.

Results

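The 102 transposon entries described here carry no class in the authors' tables and had many Siwi-bound piRNAs in control cells. They were chosen as entries of the class Unclassified with a mean of at least 100 RPM (reads scaled to 1 M of the small RNA library) over the 2 control libraries, after 14 named entries were left out. The tables list 1716 transposon entries, of which 1204 are unclassified. Of these, 112 reached 100 RPM, and 10 of the 112 were among the entries left out. Names of 99 of the 102 begin with BmTE_RM and a number that the sources used here do not explain, with 40 BmTE_RM6, 31 BmTE_RM1, 23 BmTE_RM5, 4 BmTE_RM4 and 1 BmTE_RM2 entries. The other 3 were Chochin, Kasu_polyA_type and TE-1_BM. The deposited tables give no coordinates for them, so their place in the silkworm genome is not described.

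In the piRNA pathway, PIWI proteins carry small guide RNAs (piRNAs) that find transposon transcripts by base pairing. The silkworm has the PIWI proteins Siwi and Ago3, both of which cut the RNA they find, and by ping-pong amplification the cut pieces become new piRNAs for the partner protein. Mael (Maelstrom) is conserved in animals and known in Drosophila for transposon silencing, and the title of the study places it in the making of the Siwi-piRNA complex. Siwi-bound reads therefore show which entries supply or match piRNAs, and poly-A RNA shows how much transcript of each entry is present.

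All libraries came from BmN4, an ovary-derived silkworm cell line. Cells of the small RNA table received siRNA against Ago3 (Ago3KD), Mael (MaelKD) or luciferase (LucKD, the control), and those of the RNA table received siRNA against Siwi (SiwiKD), Mael (MaelKD) or luciferase (LucKD). Every group had 2 libraries, which makes 12. Each transfection used 500 pmol of siRNA, was repeated once, and was followed by culture at 26 °C to day 10. Small RNA of 22 to 35 nt was taken from immunoprecipitates of Flag-tagged Siwi, which the labels describe as plasmid-expressed protein only in general terms, so its amount in each library's cells was not analysed here. Poly-A RNA was sequenced without immunoprecipitation. The tables list transposons only, so the knockdown of Siwi, Ago3 and Mael and the markers of the cell line were not checked here. In such bulk samples fewer cells with a transcript and less transcript per cell cannot be told apart. Library totals were 1.76 to 4.81 M small RNA reads and 32.5 to 45.2 M RNA reads.

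Control levels of the 102 entries had a wide spread, and a few entries held much of the total. The LucKD mean, which chose the entries and is given as a description, was lowest at 100.4 RPM, had a median of 271 RPM and was highest at 4157 RPM. At least 1000 RPM were reached by 13 entries, and 45 lay under 200 RPM. Together the 8 highest entries held 39.3% of the RPM of all 102, and the top 3 held 22.5%. The 102 entries accounted for 53.6% of the LucKD RPM of all unclassified entries, and 5 of them were among the 50 highest entries of the whole table. Just inside the threshold were BmTE_RM1-502 with 100.4 RPM (mean of 122.6 and 78.3 RPM), BmTE_RM1-81 with 102.0 RPM and BmTE_RM2-1 with 110.02 RPM. Just outside were BmTE_RM1-658 with 99.98 RPM, BmTE_RM5-703 with 98.8 RPM and BmTE_RM4-159 with 98.6 RPM, so the threshold divides entries of nearly equal level.

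The 3 highest entries were close to each other in control cells and had ranks 15, 16 and 17 among all 1716 entries. BmTE_RM6-3840 had 2636 and 2619 RPM in Ago3KD, 9561 and 9702 RPM in MaelKD and 4242 and 4071 RPM in LucKD libraries. For BmTE_RM1-27 the values were 1266 and 1258 RPM in Ago3KD, 6422 and 6777 RPM in MaelKD and 3893 and 4405 RPM in LucKD libraries. BmTE_RM1-573 gave 1946 and 1914 RPM in Ago3KD, 5283 and 5318 RPM in MaelKD and 4298 and 3948 RPM in LucKD libraries. In all 3 the Ago3KD libraries were the lowest and the MaelKD libraries the highest, with no overlap between groups.

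The next entry, BmTE_RM6-2569, had the opposite order. It gave 3535 and 3611 RPM in Ago3KD, 1088 and 1049 RPM in MaelKD and 2449.6 and 3117 RPM in LucKD libraries, so its MaelKD libraries were the lowest. BmTE_RM6-3974 had 882 and 956 RPM in Ago3KD, 1923 and 1979 RPM in MaelKD and 1669 and 1825 RPM in LucKD libraries. BmTE_RM5-662 had 638 and 644 RPM in Ago3KD, 3304 and 3409.8 RPM in MaelKD and 1341 and 1669 RPM in LucKD libraries. Both followed the order of the top 3. On the RPM scale BmTE_RM5-916 and BmTE_RM5-338 were highest in LucKD, but with trimmed-mean scaling, which sets aside the shift shared by most entries, the log2 change of BmTE_RM5-916 in MaelKD relative to LucKD turned to 0.22. BmTE_RM5-916 had 897 and 821 RPM in Ago3KD, 1330.1 and 1229.7 RPM in MaelKD and 1705 and 1576 RPM in LucKD libraries. BmTE_RM5-338 had 676 and 644 RPM in Ago3KD, 1066 and 986 RPM in MaelKD and 1501 and 1675 RPM in LucKD libraries.

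**Figure D1:**
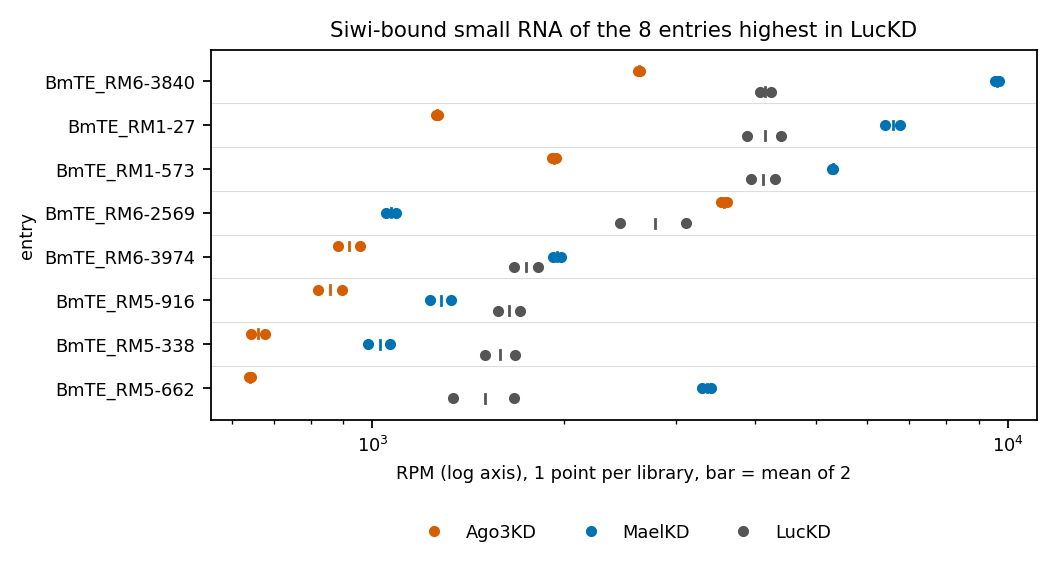
Siwi-bound small RNA (RPM, log axis) of the 8 unclassified entries highest in LucKD, with 1 point per library and a bar at the mean of 2, for Ago3KD, MaelKD and LucKD. BmTE_RM6-3840 has a mean of 2627 RPM in Ago3KD, 9632 RPM in MaelKD and 4157 RPM in LucKD, while BmTE_RM6-2569 is lowest in MaelKD.

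RPM is not divided by length, so longer entries can collect more reads. Lengths were recovered from the steps of the RPKM values for the 69 entries with at least 100 RNA reads, and ran from 186 to 6743 nt with a median of 1258 nt. A recovered length is the shortest that makes all reads whole and may be a whole fraction of the true one. Per kilobase, the LucKD level of these 69 entries was 43.6 to 2073 RPM per kb with a median of 236 RPM per kb. BmTE_RM1-27 (2002 nt) was highest with 2073 RPM per kb, before BmTE_RM5-662 (905 nt) with 1663 RPM per kb and BmTE_RM1-469 (991 nt) with 1288 RPM per kb. BmTE_RM6-3840 (5700 nt) had 729 RPM per kb, so the order of the top entries depends on the scale used. Across these 69 entries Spearman's rho between LucKD RPM and length was 0.41, and across all 102 the rho between LucKD RPM and LucKD RPKM was 0.16, both given as descriptions across entries that share libraries.

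Many of the entries were nevertheless low in poly-A RNA. A mean of at least 1 RPKM (reads per kilobase of entry, scaled to the library) over the 6 RNA libraries was reached by 62 of 102 entries, which is 60.8%, against 19.2% of the other 1102 unclassified entries and 70.4% of the 196 entries of other classes with at least 100 RPM. The median level of all 102 was 2.24 RPKM in SiwiKD, 1.47 RPKM in MaelKD and 1.28 RPKM in LucKD. Of the 8 entries highest in small RNA, 4 had a mean under 1 RPKM over the 6 libraries. They were BmTE_RM1-573 with 539 RNA reads over 6 libraries, BmTE_RM5-338 with 37, BmTE_RM6-2569 with 10 and BmTE_RM5-916 with 5. In MaelKD replicate 1, BmTE_RM6-2569 reached 1.46 RPKM. No RNA read was assigned to BmTE_RM1-507, BmTE_RM6-3257, BmTE_RM5-193 or BmTE_RM6-8932 in any of the 6 libraries, where a count of 0 allows up to 3 reads per library. These 4 entries had 293, 180.7, 162.7 and 133 RPM of Siwi-bound small RNA in LucKD, so Siwi-bound reads were present where poly-A RNA was not detectable at this depth.

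The 6 entries highest in RNA had LucKD small RNA levels on both sides of the median of the 102 entries. BmTE_RM5-1103 had 961 and 452 RPKM in SiwiKD, 247 and 298 RPKM in MaelKD and 236 and 212 RPKM in LucKD libraries. BmTE_RM6-8200 followed with 201 and 124 RPKM in SiwiKD, 92.5 and 85.4 RPKM in MaelKD and 110.4 and 110.4 RPKM in LucKD libraries. BmTE_RM1-4 had 142 and 129.8 RPKM in SiwiKD, 114 and 117 RPKM in MaelKD and 105 and 87.2 RPKM in LucKD libraries. All 3 were highest in SiwiKD libraries, and their LucKD small RNA was 137, 119 and 119.7 RPM. The other three were BmTE_RM1-58, BmTE_RM5-132 and BmTE_RM1-32, with LucKD means of 81.0 ± 8.00, 43.7 ± 0.146 and 33.1 ± 1.50 RPKM (SD, n = 2), and their LucKD small RNA was 287, 268 and 785 RPM. Both SiwiKD libraries of BmTE_RM5-132 lay below both LucKD libraries, and neither its change nor that of BmTE_RM1-58 passed the test.

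As a share of the whole small RNA library, the 102 entries held 3.48% ± 0.0248 in Ago3KD, 6.37% ± 0.0638 in MaelKD and 5.52% ± 0.0664 in LucKD (SD, n = 2). The 10 entries with the most reads were picked by their mean RPM over all 6 libraries, MaelKD included. Without them the shares were 2.08% ± 0.0251 in Ago3KD, 2.69% ± 0.0194 in MaelKD and 3.15% ± 0.0207 in LucKD. The MaelKD share was above LucKD with the 10 most read entries and below it without them. MaelKD levels helped to pick these 10, so nothing is read from that change of order. An exact permutation test of 2 against 2 libraries cannot give a two-sided p below 0.3333. All transposon entries together held 36.6% of reads in Ago3KD, 49.3% in MaelKD and 43.1% in LucKD, which moves with these shares, and its part in them was not tested. Of these transposon reads the 102 entries held 9.52% ± 0.245 in Ago3KD, 12.9% ± 0.180 in MaelKD and 12.8% ± 0.116 in LucKD (SD, n = 2). In RNA the 102 entries held 0.249% ± 0.0548 of reads in SiwiKD, 0.175% in each MaelKD library and 0.166% ± 0.00421 in LucKD (SD, n = 2).

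After Ago3 knockdown most of the entries had lower RPM of Siwi-bound small RNA, which is a share of each library and not an amount. Levels are compared as log2(value + 1), so a fold is on that scale and is understated for low values, and a call is an adjusted p below 0.05 over all tested entries. With limma, 84 of 102 entries fell and 7 rose. Of all 1004 tested entries 57.5% were called, 40.6% lower and 16.8% higher. Since LucKD levels chose the entries, nothing is read from that difference. Their median log2 change was -0.72, beside -0.28 for all tested entries and -0.60 for the 196 entries of other classes with at least 100 RPM, of which 141 fell and 11 rose. Choosing the entries on 1 LucKD library and comparing with the other alone leaves 1 control library. No label says that these libraries are separate cultures, so that split cannot remove the selection, and nothing is read from it.

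Among the falls after Ago3 knockdown, 28 of 102 were at least 2-fold, where 19.6% of all tested entries had such a fall. BmTE_RM6-6321 had 29.1 and 21.6 RPM in Ago3KD against 138 and 94.7 RPM in LucKD, a log2 change of -2.14 ± 0.18 (± SE). BmTE_RM5-259, with more reads, had 216 and 196 RPM in Ago3KD against 877 and 800.1 RPM in LucKD, a log2 change of -2.02 ± 0.09. In both, the Ago3KD libraries lay far below the LucKD libraries. Next came BmTE_RM6-1990, with 67.4 and 79.4 RPM in Ago3KD against 263 and 290.3 RPM in LucKD, and BmTE_RM1-213, with 114 and 139 RPM in Ago3KD against 413 and 514 RPM in LucKD. BmTE_RM6-8200, one of the entries highest in RNA, had 31.8 and 34.9 RPM in Ago3KD against 118 and 121 RPM in LucKD, and BmTE_RM4-173 had 36.8 and 43.2 RPM in Ago3KD against 125 and 143 RPM in LucKD. Log2 changes of these last 4 ran from -1.90 to -1.72. No Ago3KD library overlapped a LucKD library, which the rule that named these entries required.

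Of the 7 rises after Ago3 knockdown, that of BmTE_RM6-1786 was at least 2-fold, where 10.1% of all tested entries had such a rise. It had 598 and 570.4 RPM in Ago3KD against 134 and 152 RPM in LucKD, a log2 change of 2.03 ± 0.11 and a ratio of 4.09 between the means. BmTE_RM6-4376 had 499 and 462 RPM in Ago3KD against 275 and 266 RPM in LucKD (log2 change 0.83 ± 0.10), and BmTE_RM1-4 had 188 and 178 RPM in Ago3KD against 117 and 122 RPM in LucKD (log2 change 0.61 ± 0.11). BmTE_RM6-2569 rose by 0.37, BmTE_RM4-128 by 0.33 and BmTE_RM6-8305 by 0.30 on the log2 scale. The calls of BmTE_RM4-128 and BmTE_RM6-8305 were lost without Ago3KD replicate 1 (adjusted p = 0.0899 and 0.217 with limma), and that of BmTE_RM6-8305 also without LucKD replicate 2 (adjusted p = 0.124). With trimmed-mean scaling, which moves the median of all tested entries to 0.01, 59 of the 102 fell and 14 rose.

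Mael knockdown moved the entries in both directions. Compared with LucKD, 64 of 102 fell and 23 rose (limma), where 56.2% of all 1004 tested entries were called, 44.4% lower and 11.8% higher. Here too LucKD levels chose the entries, and nothing is read from that difference. The median log2 change was -0.51, beside -0.44 for all tested entries and -0.45 for the 196 entries of other classes with at least 100 RPM, of which 123 fell and 45 rose. The direction of the list depends on the scaling: trimmed-mean scaling moves the median of all tested entries to 0.06, and the median of the 102 is then also 0.06, with 27 falls and 43 rises. Choosing the entries on 1 LucKD library and comparing with the other alone has the limits given for Ago3 knockdown, and nothing is read from it.

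At least 2-fold were 5 of the rises after Mael knockdown, where 3.59% of all tested entries had such a rise. BmTE_RM5-3344 had 4637 and 4578 RPM in MaelKD against 1105 and 1129.6 RPM in LucKD, a log2 change of 2.04 ± 0.07, while its Ago3KD libraries had 1086 and 1153 RPM. Its MaelKD mean was 4.12-fold that of LucKD, while on the RPM scale the Ago3KD and LucKD libraries overlapped. With trimmed-mean scaling BmTE_RM5-3344 also rose in Ago3KD relative to LucKD, with a log2 change of 0.32 (limma, adjusted p = 0.00138). BmTE_RM6-3840, the highest entry in LucKD, had a log2 change of 1.21 ± 0.07, and BmTE_RM5-662 one of 1.17 ± 0.08. BmTE_RM5-502 had 1877 and 2089.9 RPM in MaelKD against 911 and 931 RPM in LucKD, with a log2 change of 1.10 ± 0.08. For BmTE_RM1-178 the values were 287 and 263 RPM in MaelKD against 136 and 129.9 RPM in LucKD, and for BmTE_RM6-2610 they were 254 and 309 RPM in MaelKD against 128 and 174 RPM in LucKD. In each of these entries both MaelKD libraries lay above both LucKD libraries, as the rule that named them required. The log2 change was 1.04 ± 0.11 for BmTE_RM1-178 and 0.91 ± 0.13 for BmTE_RM6-2610.

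Of the falls after Mael knockdown 21 were at least 2-fold, where 21.4% of all tested entries had such a fall, and the 6 largest were in entries with LucKD means between 111 and 280.0 RPM. BmTE_RM6-2104 had 30.8 and 27.7 RPM in MaelKD against 103 and 119 RPM in LucKD, a log2 change of -1.89 ± 0.17. BmTE_RM6-5944 had 80.4 and 78.1 RPM in MaelKD against 276 and 269 RPM in LucKD, a log2 change of -1.77 ± 0.11. Both fell far outside the spread of the libraries. BmTE_RM6-8200 had 40.7 and 29.3 RPM in MaelKD against 118 and 121 RPM in LucKD, and BmTE_RM6-8932, which had no RNA read, had 41.7 and 35.3 RPM in MaelKD against 153 and 114 RPM in LucKD. BmTE_RM6-4250 had 76.7 and 87.4 RPM in MaelKD against 237 and 323 RPM in LucKD, and BmTE_RM6-2892 had 48.3 and 47.8 RPM in MaelKD against 163 and 158 RPM in LucKD. Log2 changes of these 4 ran from -1.76 to -1.72, and the rule that named them required groups without overlap. BmTE_RM1-362 had 391 and 424 RPM in MaelKD against 1271 and 1302 RPM in LucKD, a log2 change of -1.66 ± 0.08, and its Ago3KD libraries had 1286 and 1244 RPM.

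**Figure D2:**
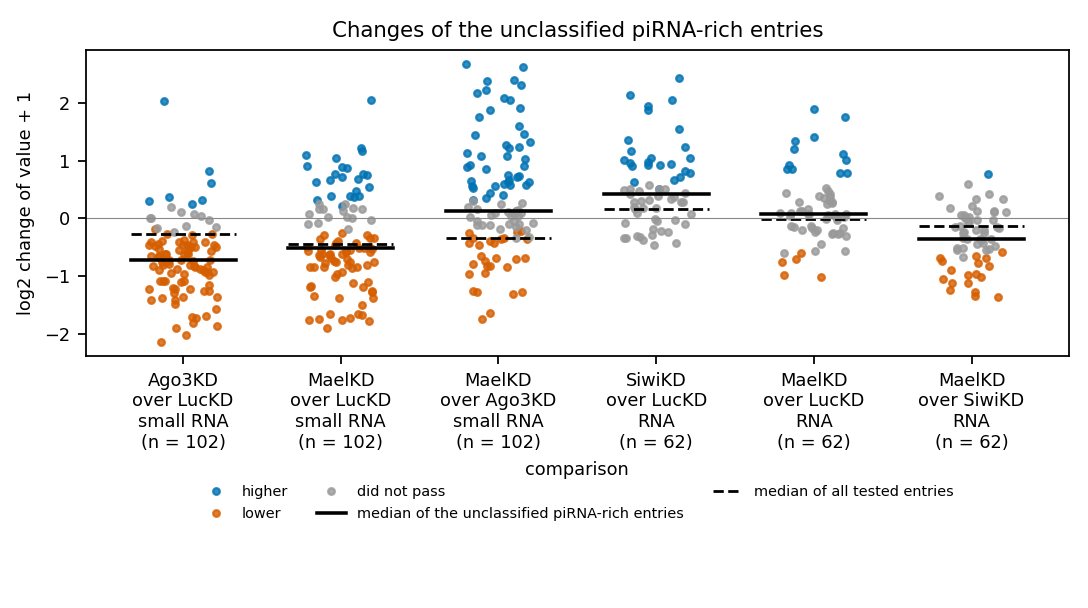
Log2 change of value + 1 for each unclassified piRNA-rich entry in the 6 comparisons, 102 entries in small RNA (RPM) and 62 in RNA (RPKM), colored by direction where the limma test was passed; solid bars are the medians of these entries and dashed bars those of all tested entries. In small RNA most points lie below 0 after Ago3 knockdown (median -0.72) and both ways after Mael knockdown (median -0.51, which turns to 0.06 with trimmed-mean scaling), and in RNA most calls lie above 0 after Siwi knockdown.

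The direct comparison of MaelKD with Ago3KD takes no LucKD level into its log2 change and asks whether the knockdowns left different Siwi-bound pools. LucKD libraries still enter the spread shared by the test, and LucKD levels chose the entries. Nothing is therefore read from the counts beside those of all tested entries. With limma, 44 of 102 entries were higher and 28 lower in MaelKD, where 52.4% of all 1004 tested entries were called, 20.7% of them higher, 31.7% lower. At least 2-fold were 23 of the higher and 6 of the lower calls, beside 10.2% and 14.2% of all tested entries. The median log2 change was 0.13, beside -0.34 for all tested entries. Entries of other classes with at least 100 RPM had a median of 0.10, with 92 of 196 higher and 71 lower, while unclassified entries under 100 RPM had 47 of 497 higher and 152 lower. With trimmed-mean scaling 60 of the 102 were higher and 17 lower, beside a median of -0.12 for all tested entries.

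Large differences between these knockdowns were found in entries of low and of high level. BmTE_RM6-1990 had 428 and 519 RPM in MaelKD against 67.4 and 79.4 RPM in Ago3KD, a log2 change of 2.67 ± 0.11 (limma, adjusted p = 2e-23). BmTE_RM1-213 had 769.9 and 789.6 RPM in MaelKD against 114 and 139 RPM in Ago3KD, a log2 change of 2.62 ± 0.10 (limma, adjusted p = 2.89e-24). The LucKD libraries of both entries lay between those of the knockdowns. BmTE_RM5-662 and BmTE_RM1-27, whose values are given above, had log2 changes of 2.39 ± 0.08 and 2.39 ± 0.07. BmTE_RM5-502 had 1877 and 2089.9 RPM in MaelKD against 426 and 373 RPM in Ago3KD, a log2 change of 2.31 ± 0.08. For BmTE_RM1-32, one of the entries highest in RNA, the values were 1376 and 1496 RPM in MaelKD against 306 and 305 RPM in Ago3KD, a log2 change of 2.23 ± 0.08. All 4 of these passed the test with both MaelKD libraries above both Ago3KD libraries, and the rule that named them required both.

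Entries lower in MaelKD than in Ago3KD were led by BmTE_RM6-2569, with a log2 change of -1.74 ± 0.08 (limma, adjusted p = 2.4e-21). BmTE_RM1-362 had 391 and 424 RPM in MaelKD against 1286 and 1244 RPM in Ago3KD, a log2 change of -1.63 ± 0.08 (limma, adjusted p = 7.2e-21). Its LucKD libraries lay close to the Ago3KD ones on the RPM scale. With trimmed-mean scaling it rose in Ago3KD relative to LucKD, with a log2 change of 0.29 (limma, adjusted p = 0.00495). BmTE_RM6-5944 had 80.4 and 78.1 RPM in MaelKD against 203 and 193 RPM in Ago3KD, and BmTE_RM6-4250 had 76.7 and 87.4 RPM in MaelKD against 195 and 206 RPM in Ago3KD. Log2 changes of this pair were -1.31 ± 0.11 and -1.28 ± 0.12. BmTE_RM6-4376 had 202 and 192 RPM in MaelKD against 499 and 462 RPM in Ago3KD, a log2 change of -1.28 ± 0.10. For BmTE_RM6-1786 the values were 284 and 209 RPM in MaelKD against 598 and 570.4 RPM in Ago3KD, a log2 change of -1.26 ± 0.11, with LucKD below both. In none of these 6 entries did a MaelKD library overlap an Ago3KD library, as the rule that named them required. Across all 102 entries, Spearman's rho between the small RNA change and the LucKD RPKM level was -0.02 after Ago3 knockdown, 0.09 after Mael knockdown and 0.07 between the knockdowns, given as descriptions.

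**Figure D3:**
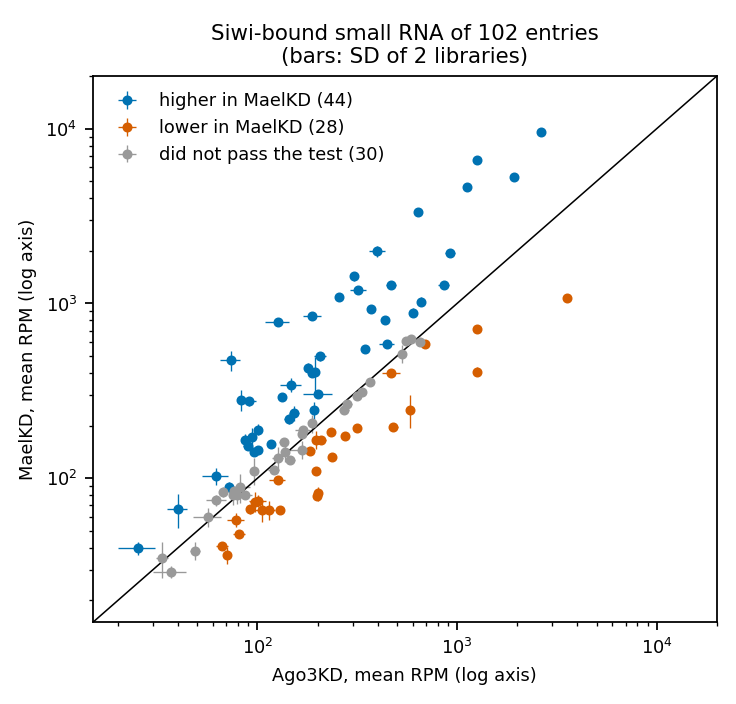
Mean Siwi-bound small RNA (RPM, log axes) of the 102 entries in MaelKD (vertical) and Ago3KD (horizontal), with bars for the SD of 2 libraries and a line where the groups are equal. The 44 entries higher in MaelKD include the 3 of highest MaelKD level (BmTE_RM6-3840, BmTE_RM1-27 and BmTE_RM1-573), and the 28 lower ones include BmTE_RM6-2569 at the far right.

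After Siwi knockdown the RNA of many entries rose, and falls passed the test only with 1 library left out or with other scaling. Of the 62 entries with a mean of at least 1 RPKM, 24 rose and 0 fell, or 20 rose and 1 fell without SiwiKD replicate 2 (limma; at an unadjusted p under 0.05 and by edgeR the number of falls was 2 and 0). Of all 490 tested entries 27.3% were called, 24.3% higher and 3.06% lower. Of the 138 tested entries of other classes with at least 100 RPM, 61 rose and 4 fell. The median log2 change of the 62 entries was 0.42, beside 0.15 for all tested entries. At least 2-fold were 12 of the rises, beside 11.4% of all tested entries, and log2 changes of the 24 ran from 0.50 to 2.43. An entry low in LucKD could pass the filter on low values through the knockdown libraries: 6 of the 62 were under 1 RPKM in LucKD, and all 6 rose, while 18 of the 56 at or above 1 RPKM in LucKD rose.

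The largest rise after Siwi knockdown was that of BmTE_RM6-2892, with 33.3 and 15.4 RPKM in SiwiKD against 4.49 and 2.51 RPKM in LucKD, a log2 change of 2.43 ± 0.25 (limma, adjusted p = 3.79e-09). Its libraries differed widely within each group, and the rule that named this entry required groups without overlap. BmTE_RM6-4376 had 30.5 and 25.8 RPKM in SiwiKD against 5.51 and 5.71 RPKM in LucKD, a log2 change of 2.14 ± 0.19 (limma, adjusted p = 2.44e-10). BmTE_RM1-87 had 44.4 and 43.8 RPKM in SiwiKD against 9.88 and 10.1 RPKM in LucKD, BmTE_RM5-3163 had 46.0 and 45.0 RPKM in SiwiKD against 10.7 and 11.4 RPKM in LucKD, and BmTE_RM4-128 had 33.2 and 31.6 RPKM in SiwiKD against 8.31 and 7.92 RPKM in LucKD. These entries had close libraries in each group and log2 changes of 2.04 ± 0.20, 1.95 ± 0.18 and 1.87 ± 0.19. BmTE_RM5-1103, the entry highest in RNA, had a log2 change of 1.55 ± 0.25 (limma, adjusted p = 9.74e-06), and its SiwiKD libraries stood far apart from each other. Without the filter on low values 15 entries were called, and with trimmed-mean scaling 21 rose and 5 fell.

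After Mael knockdown fewer entries changed in RNA, and in both directions. Compared with LucKD, 12 of 62 rose and 5 fell (limma), where 11.0% of all 490 tested entries were called, 8.37% higher and 2.65% lower. Of the 138 tested entries of other classes with at least 100 RPM, 16 rose and 3 fell, and of 201 tested unclassified entries under 100 RPM 4 rose and 4 fell. The median log2 change of the 62 was 0.08, beside -0.01 for all tested entries. At least 2-fold were 7 rises and 1 fall, beside 3.67% and 0.408% of all tested entries. Of the 6 entries under 1 RPKM in LucKD 3 rose, and of the 56 others 9 rose. The count depends on the MaelKD libraries, with 10 calls without MaelKD replicate 1 and 5 calls, all rises, without MaelKD replicate 2. Without the filter on low values 5 entries were called.

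BmTE_RM6-4376 rose most after Mael knockdown, with 26.4 and 20.9 RPKM in MaelKD against 5.51 and 5.71 RPKM in LucKD, a log2 change of 1.89 ± 0.19 (limma, adjusted p = 8.69e-09). BmTE_RM5-3163 had 39.7 and 39.4 RPKM in MaelKD against 10.7 and 11.4 RPKM in LucKD, a log2 change of 1.76 ± 0.18 (limma, adjusted p = 8.92e-09). In both, the MaelKD libraries lay far above LucKD and close to the SiwiKD libraries given above. BmTE_RM6-4364, low in RNA, had 2.53 and 3.55 RPKM in MaelKD against 0.553 and 0.471 RPKM in LucKD, a log2 change of 1.41 ± 0.25 (limma, adjusted p = 0.000202), and its SiwiKD libraries had 1.37 and 2.00 RPKM. With LucKD means under 1 RPKM, BmTE_RM6-4364 and BmTE_RM6-5745 passed the filter on low values through the knockdown libraries in which they were high. BmTE_RM5-6906 had 5.63 and 10.3 RPKM in MaelKD against 1.89 and 3.02 RPKM in LucKD (log2 change 1.34 ± 0.24), with MaelKD libraries far apart from each other. BmTE_RM6-2892 had 8.54 and 9.68 RPKM in MaelKD against 4.49 and 2.51 RPKM in LucKD (log2 change 1.20 ± 0.25), and BmTE_RM6-5745 had 2.22 and 2.61 RPKM in MaelKD against 0.706 and 0.439 RPKM in LucKD (log2 change 1.12 ± 0.26). None of these 6 had overlapping groups, which the rule that named them required. The calls of BmTE_RM5-6906, BmTE_RM6-2892 and BmTE_RM6-5745 were lost without MaelKD replicate 2, with log2 changes of 0.96, 1.12 and 1.04. That of BmTE_RM6-2892 was also lost without LucKD replicate 2, with a log2 change of 0.88.

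The 5 falls after Mael knockdown had smaller log2 changes, and their calls depended on single libraries. BmTE_RM6-181 had 3.49 and 2.90 RPKM in MaelKD against 6.63 and 8.47 RPKM in LucKD, a log2 change of -1.02 ± 0.21 (limma, adjusted p = 0.0012). BmTE_RM6-3840 had 0.330 and 0.435 RPKM in MaelKD against 1.63 and 1.83 RPKM in LucKD, a log2 change of -0.98 ± 0.25 (limma, adjusted p = 0.00762). Both MaelKD libraries lay below both LucKD libraries in each, as the rule that named these entries required. With both MaelKD libraries under 1 RPKM, BmTE_RM6-3840 passed the filter on low values through the LucKD and SiwiKD libraries in which it was high. BmTE_RM1-178 had 30.0 and 25.4 RPKM in MaelKD against 48.4 and 46.1 RPKM in LucKD (log2 change -0.75 ± 0.18), TE-1_BM had 12.2 and 11.1 RPKM in MaelKD against 19.2 and 20.1 RPKM in LucKD (log2 change -0.71 ± 0.18), and BmTE_RM1-614 had 17.3 and 16.2 RPKM in MaelKD against 23.0 and 29.1 RPKM in LucKD (log2 change -0.60 ± 0.19). Each of the 5 calls was lost without MaelKD replicate 2 (limma, adjusted p of 0.0693 to 0.238), though the direction stayed. That of BmTE_RM6-3840 was lost without any 1 of the 4 libraries (limma, adjusted p of 0.0553 to 0.1005), and those of BmTE_RM1-178, TE-1_BM and BmTE_RM1-614 without at least 1 other library.

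**Figure D4:**
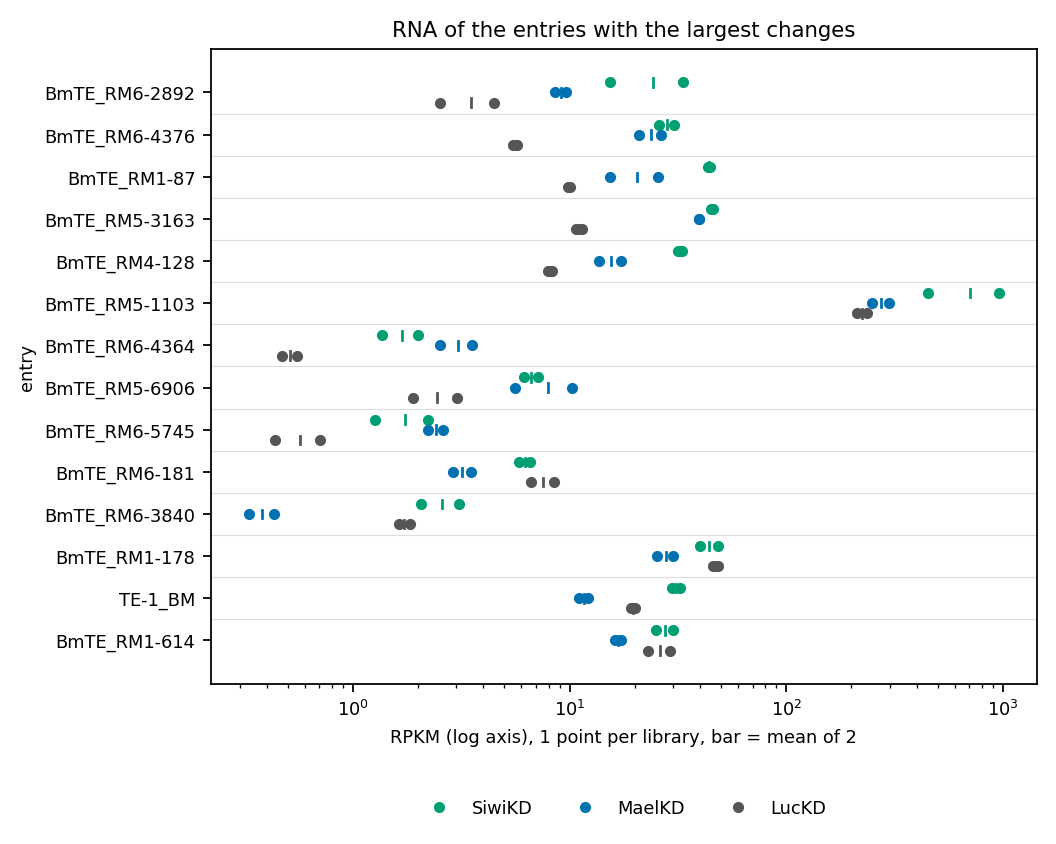
RNA level (RPKM, log axis) of 14 entries with the largest changes after Siwi or Mael knockdown, with 1 point per library and a bar at the mean of 2, for SiwiKD, MaelKD and LucKD. The upper 9 entries are higher in 1 or both knockdowns, and the lower 5 are lower in MaelKD than in LucKD, with BmTE_RM6-3840 at 0.330 and 0.435 RPKM in the MaelKD libraries.

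MaelKD and SiwiKD were also compared directly in RNA. Of the 62 entries 1 was higher and 18 were lower in MaelKD (limma), where 20.4% of all 490 tested entries were called, 1.63% higher and 18.8% lower. At least 2-fold were 8 of the lower calls, beside 7.35% of all tested entries. The median log2 change was -0.35, beside -0.14 for all tested entries. BmTE_RM6-3840 had 0.330 and 0.435 RPKM in MaelKD against 2.07 and 3.10 RPKM in SiwiKD, a log2 change of -1.36 ± 0.25 (limma, adjusted p = 0.000197). It passed the filter on low values through SiwiKD and LucKD, and 5 of the 62 entries were under 1 RPKM in MaelKD. TE-1_BM had 12.2 and 11.1 RPKM in MaelKD against 29.6 and 32.3 RPKM in SiwiKD, a log2 change of -1.34 ± 0.18 (limma, adjusted p = 2.07e-06). The LucKD libraries of both entries lay between the knockdowns, and TE-1_BM rose after Siwi knockdown relative to LucKD, with a log2 change of 0.63 ± 0.18 (limma, adjusted p = 0.00994).

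BmTE_RM5-1103, BmTE_RM6-2892 and BmTE_RM1-87 were lower in MaelKD than in SiwiKD, with log2 changes of -1.28 ± 0.25, -1.23 ± 0.25 and -1.11 ± 0.20. BmTE_RM6-2082 had 0.541 and 0.910 RPKM in MaelKD against 2.21 and 3.36 RPKM in SiwiKD, a log2 change of -1.13 ± 0.26, and its LucKD libraries had 1.11 and 0.827 RPKM, so it passed the filter through SiwiKD. The 1 entry higher in MaelKD was BmTE_RM1-295, with 43.6 and 47.5 RPKM in MaelKD against 26.2 and 26.8 RPKM in SiwiKD, a log2 change of 0.76 ± 0.18 (limma, adjusted p = 0.00256), and LucKD libraries of 35.2 and 32.6 RPKM between them. Its call was lost without MaelKD replicate 2, where 9 entries in all were called. With trimmed-mean scaling 3 were higher and 11 lower, and the calls of BmTE_RM5-1103 and BmTE_RM6-2892 were lost (limma, adjusted p of 0.0512 and 0.0548). The call of BmTE_RM6-2892 was also lost without SiwiKD replicate 1, and that of BmTE_RM6-2082 without SiwiKD replicate 2 (limma, adjusted p of 0.0528 and 0.0545).

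Mael knockdown is the treatment shared by the small RNA and RNA tables, which allows both changes to be set side by side for the 62 entries tested in each. The small RNA changes use the LucKD levels that chose the entries, and an entry can pass the RNA filter through the group where it is high, so nothing is read from these counts beside those of all entries. In 10 entries small RNA fell and RNA rose, where 32 of the 453 entries tested in both tables (7.06%) did so. Small RNA rose and RNA fell in 2 entries (0.662% of the 453), both fell in 2 (1.1%), and both rose in 0 (0.221%). The 10 were BmTE_RM6-2892, BmTE_RM6-1880, BmTE_RM6-5745, BmTE_RM1-182, BmTE_RM1-575, BmTE_RM6-4364, BmTE_RM5-3163, BmTE_RM5-6906, BmTE_RM6-4376 and BmTE_RM5-2584, named here in the order of their small RNA fall. Of these, BmTE_RM6-1880, BmTE_RM6-5745 and BmTE_RM6-4364 were under 1 RPKM in LucKD.

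The counts depend on the scaling, the filter and single RNA libraries, as alternatives chosen after seeing the data showed. With both tables scaled by trimmed means, 6 of the 10 stayed lower in small RNA and higher in RNA, and the small RNA falls of BmTE_RM5-3163, BmTE_RM5-6906, BmTE_RM6-4376 and BmTE_RM5-2584 no longer passed the test (limma, adjusted p of 0.172 to 0.326). Small RNA was then higher and RNA lower in 3 entries, both were lower in 1, and both were higher in 2. Without MaelKD replicate 2 of the RNA table, BmTE_RM5-3163, BmTE_RM6-4364 and BmTE_RM6-4376 were the 3 of the 10 that stayed, and no entry had either of the patterns with lower RNA. Without the filter on low values the same 3 entries stayed. Across the 62 entries Pearson's r between the changes was -0.31 and Spearman's rho was -0.31, a description across entries of the same libraries.

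BmTE_RM6-2892 had the largest small RNA fall of the 10, with a log2 change of -1.72 ± 0.13, beside an RNA log2 change of 1.20 ± 0.25 whose call was lost in the alternatives given above. BmTE_RM6-1880 had 66.8 and 64.6 RPM in MaelKD against 177 and 167 RPM in LucKD and 2.27 and 2.68 RPKM in MaelKD against 0.635 and 0.818 RPKM in LucKD. BmTE_RM1-182 had 65.5 and 54.8 RPM in MaelKD against 137 and 155 RPM in LucKD and 18.1 and 25.5 RPKM in MaelKD against 11.2 and 12.9 RPKM in LucKD. In both entries each MaelKD library lay below LucKD in small RNA and above LucKD in RNA. BmTE_RM1-575 had 174 and 174 RPM in MaelKD against 336 and 324 RPM in LucKD and 6.38 and 6.15 RPKM in MaelKD against 2.53 and 3.59 RPKM in LucKD, again without overlap. BmTE_RM6-5745 had a small RNA log2 change of -1.34 ± 0.13, and BmTE_RM6-4364 one of -0.85 ± 0.11, beside the RNA rises given above. BmTE_RM5-3163 and BmTE_RM6-4376, which had the largest RNA rises, had small RNA log2 changes of -0.75 ± 0.13 and -0.45 ± 0.10, smaller than those of the entries above.

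BmTE_RM6-3840 and BmTE_RM1-178 went the other way, with small RNA log2 changes of 1.21 ± 0.07 and 1.04 ± 0.11 and RNA log2 changes of -0.98 ± 0.25 and -0.75 ± 0.18. BmTE_RM6-181 and BmTE_RM1-614 fell in both tables, but with trimmed-mean scaling the small RNA fall of BmTE_RM1-614 did not pass the test (limma, adjusted p = 0.958). BmTE_RM6-181 had 628 and 617 RPM in MaelKD against 1144 and 1034 RPM in LucKD, a small RNA log2 change of -0.80 ± 0.08, and BmTE_RM1-614 had 314 and 305 RPM in MaelKD against 507 and 425 RPM in LucKD, a small RNA log2 change of -0.58 ± 0.10. Their RNA values are given above. In contrast, BmTE_RM5-3344 and BmTE_RM5-662, which rose in small RNA, had RNA log2 changes of 0.07 ± 0.20 and 0.25 ± 0.24 that did not pass the test (limma, adjusted p of 0.941 and 0.644).

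**Figure D5:**
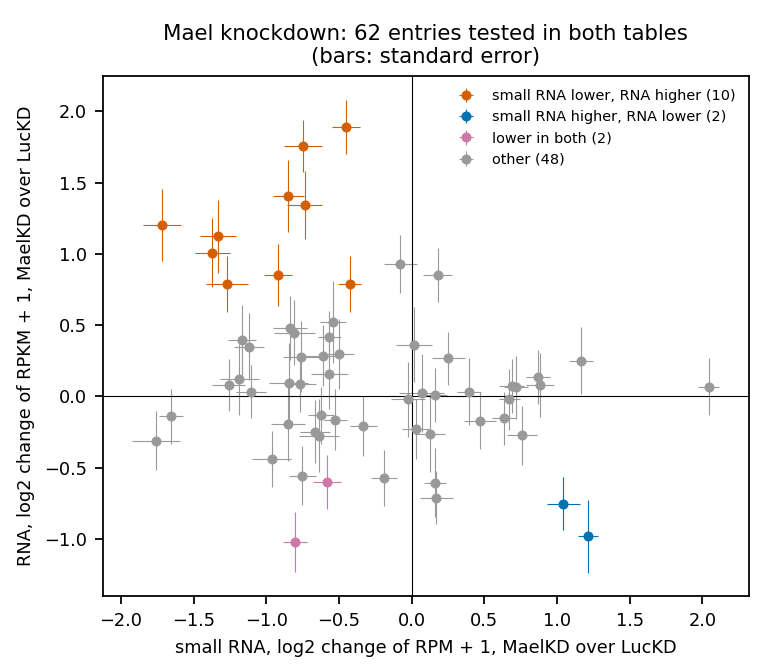
RNA change (vertical, log2 of RPKM + 1) beside small RNA change (horizontal, log2 of RPM + 1) after Mael knockdown relative to LucKD for the 62 entries tested in both tables, with bars for the standard error. The 10 entries with lower small RNA and higher RNA (6 with trimmed-mean scaling) lie at the upper left, the 2 with the reverse at the lower right, and most others lie near 0 in RNA.

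The small RNA changes of the 3 entries with names of their own depended on the scaling. Chochin had 571 and 542 RPM in Ago3KD, 622 and 590.5 RPM in MaelKD and 776 and 711 RPM in LucKD libraries, and it fell in both knockdowns, but with trimmed-mean scaling its Ago3KD fall did not pass the test and its MaelKD log2 change turned to 0.28 (limma, adjusted p of 0.345 and 0.00785). Kasu_polyA_type had 529.8 and 529 RPM in Ago3KD, 559 and 475 RPM in MaelKD and 617 and 563 RPM in LucKD libraries. TE-1_BM had 171 and 163 RPM in Ago3KD, 179 and 178 RPM in MaelKD and 175 and 144 RPM in LucKD libraries. No small RNA change of these last entries relative to LucKD passed the test on the RPM scale, while with trimmed-mean scaling both rose in MaelKD, with log2 changes of 0.38 and 0.74, and TE-1_BM also in Ago3KD, with 0.39. The RNA of TE-1_BM rose after Siwi knockdown and fell after Mael knockdown, and the call of that fall was lost without single libraries, as given above. In RNA, Kasu_polyA_type had 11.6 and 15.5 RPKM in SiwiKD, 12.4 and 11.6 RPKM in MaelKD and 15.9 and 21.0 RPKM in LucKD libraries, and neither knockdown passed the test (limma, adjusted p of 0.116 and 0.0639).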

How the data were processed

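The small RNA table holds RPM and the RNA table RPKM values, both computed by the authors, as the file headers state (RPM and RPKM per the file headers). The submitters' processing notes name Bowtie 1.3.0, STAR 2.7.9a, cutadapt 3.1, Trim Galore, SAMtools and bedtools. What each did, the genome build, the strand setting and the treatment of reads with several matches were not given in the sources read, so near-identical entries may share reads. Per the labels' protocols, small RNA was read for 51 nt, and RNA libraries were stranded and read in pairs. Sample titles gave the groups and replicate numbers. No label says that replicates are separate cultures, and p-values cover only the spread between libraries, which may be technical. The chi-square per entry between replicates was 3.69 to 6.35 in small RNA and 37.5 to 51.7 in RNA, more than counting noise gives, and none was counted as a duplicate.

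Deposited values were tested as log2(value + 1) with limma 3.58.1 in R 4.3.3 (lmFit and eBayes, trend on). A table's entry was tested if its mean over 6 libraries was at least 1, which left 1004 in small RNA and 490 in RNA, and all 6 libraries shared the spread. Two-sided p-values were adjusted by Benjamini-Hochberg over all tested entries, with a threshold of 0.05. Whole reads were recovered from the steps of the values (100% of RPM values, and RPKM values of 978 of 978 entries, within 0.001 reads) for edgeR 4.0.16 as an alternative. Scripts were tested on simulated data. The limit of 3 reads for a count of 0 covers counting error only. The other alternatives were trimmed-mean scaling, other pseudocounts and filters, a replicate block, leaving out each library, and choosing entries on a single LucKD library. Those for the counts across both tables were added after seeing the data.

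Named entries were the 8 highest in LucKD small RNA, the 6 highest in RNA, those next to the threshold, up to 6 for each Mael pattern across both tables, and for each comparison the 6 largest rises and falls past the threshold whose libraries lie outside those of the other group. Chochin, Kasu_polyA_type, entries at 0 in RNA or with the highest level per kilobase, and the whole Mael pattern of 10 were named outside that rule. The entries and lists were chosen with earlier results of these data known. Germ cell markers, piRNA pathway genes and the knockdown targets were not analysed here.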

Additional observations from a re-analysis of the deposited data

How the results depend on the processing

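Counts of called entries in small RNA, both directions together, stayed within 1.5 times the reported ones under every alternative run, but their split did not: with trimmed-mean scaling 14 rose and 59 fell for Ago3KD against LucKD, 43 rose and 27 fell for MaelKD against LucKD, and 60 were higher and 17 lower for MaelKD against Ago3KD. In RNA the filter on low values changed them: without it 15 entries were called for SiwiKD against LucKD, 5 for MaelKD against LucKD and 5 for MaelKD against SiwiKD, and a minimum mean of 10 RPKM, which leaves 27 entries, gave 12, 11 and 10 calls. Leaving out each library in turn gave 84 to 90 calls for Ago3KD against LucKD, 81 to 86 for MaelKD against LucKD and 64 to 74 for MaelKD against Ago3KD in small RNA. In RNA it gave 20 to 23 calls for SiwiKD against LucKD, 5 to 18 for MaelKD against LucKD and 9 to 20 for MaelKD against SiwiKD. The median small RNA change of MaelKD against LucKD turned to 0.0572 with trimmed-mean scaling, and the median RNA change of the same groups turned to -0.0143 without LucKD replicate 1, the lowest of -0.0143 to 0.136 over the libraries left out. The cause was not tested. Of the 60 calls named as the largest rises and falls, 11 were lost without the filter and 2 with trimmed-mean scaling, and some also without MaelKD replicate 2. Not in this count are the other calls of the Mael pattern across both tables and of Chochin, several of which were lost with trimmed-mean scaling as given above. With edgeR 92, 87 and 70 entries were called in small RNA and 29, 18 and 23 in RNA, in the order above. Entries lower in small RNA and higher in RNA after Mael knockdown numbered 6 with trimmed-mean scaling, 3 without the filter, 5 with a minimum mean of 10, and 3 to 10 over the libraries left out.

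Same-numbered libraries of different groups did not deviate together (correlations of -0.046 to 0.045). This cannot show whether they were prepared together, and the labels do not say. With the replicate number as a block 91, 91 and 75 entries were called in small RNA and 26, 18 and 21 in RNA. None of the 60 calls of the largest rises and falls was lost. The 40 entries under a mean of 1 RPKM, with 0 to 539 RNA reads over 6 libraries, were left out of the RNA tests by that filter.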
